A study of Schizosaccharomyces pombe with 6 samples.

Results

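Captured interactions between gene-bearing fragments on the arms of different chromosomes were taken from the Genome Conformation Capture (GCC) networks of *Schizosaccharomyces pombe*. In GCC, cross-linked chromatin is cut with the restriction enzyme AseI and ligated, and paired reads show which fragments lay close together. A pair of fragments was a member if they lay on different nuclear chromosomes, if neither annotation named a long terminal repeat, rRNA, tRNA, ribosomal protein or transposable element, and if both midpoints lay over 100 kb from the chromosome ends and outside the centromeres and the mating-type region. The windows left out were bases 3740000 to 3800000 of chromosome I, 1590000 to 1655000 and 2100000 to 2150000 of chromosome II, and 1065000 to 1145000 of chromosome III. In all, 8903 pairs were members, of 112758 listed pairs on different nuclear chromosomes and 169783 listed pairs altogether. Of the 9464 nuclear fragments in the tables, 8009 could be part of a member pair and 5271 were.

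Values in rows of 3 follow the order G1, G2 and M phase. The 6 libraries came from 3 temperature-sensitive strains held at 36°C for 4 h, with 2 biological replicates each. Strain MY291 carries cdc10-129 and was the G1 phase group, MY284 carries cdc25-22 and was the G2 phase group, and MY286 carries nuc2-663 and was the M phase group. The deposited tables pool both replicates of a phase, so no spread between replicates could be given, every p-value below compares pooled tables, and phase cannot be told apart from strain. All strains were shifted to the same restrictive temperature, and no unarrested culture was analysed here.

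Chromosome arms of fission yeast lie in a Rabl-like arrangement in interphase, with the centromeres gathered at the spindle pole body and the telomeres at the nuclear envelope. In such an arrangement, loci at a like distance from the centromere on different arms can come near each other. Gene families with near-identical copies on different chromosomes pose a separate problem for a sequencing assay, because a short read from a shared stretch can be placed at either copy.

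The sequences of the leading pairs show how far the members differed in this respect. At all loci shown, the AseI sites of the RefSeq reference (ASM294v3) fell at the coordinates of the tables, which follow ASM294v2. The 3 pairs with the most counts are shown first, then pairs of U3, wtf and Hsp70 genes with fewer counts. Each copy is given with 40 bases of the end of its longest shared stretch in capitals. The next 20 bases, where the copies first differ, are in lower case.
eft201 (translation elongation factor 2), I:2908468-2908527, plus strand: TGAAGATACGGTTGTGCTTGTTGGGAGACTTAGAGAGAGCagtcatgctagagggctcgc
eft202 (translation elongation factor 2), III:539028-539087, minus strand: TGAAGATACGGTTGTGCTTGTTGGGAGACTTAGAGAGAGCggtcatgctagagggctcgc
ef1-b (elongation factor 1 alpha), II:626930-626989, plus strand: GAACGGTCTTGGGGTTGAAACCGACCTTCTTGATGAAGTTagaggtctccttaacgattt
tef101 (elongation factor 1 alpha), III:268921-268980, plus strand: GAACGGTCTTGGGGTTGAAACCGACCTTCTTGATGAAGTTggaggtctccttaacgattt
SPBC18H10.18c fragment, II:1803133-1803192, plus strand: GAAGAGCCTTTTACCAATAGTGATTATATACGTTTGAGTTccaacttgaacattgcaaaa
SPCC1682.06 fragment, III:382314-382373, minus strand: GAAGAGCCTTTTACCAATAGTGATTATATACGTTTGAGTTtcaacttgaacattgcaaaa
U3 RNA gene, I:987908-987967, plus strand: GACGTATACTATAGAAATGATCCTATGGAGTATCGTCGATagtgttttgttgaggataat
U3 RNA gene, II:3959047-3959106, plus strand: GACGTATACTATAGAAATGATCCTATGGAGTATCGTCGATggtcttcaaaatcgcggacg
wtf2, II:593260-593319, plus strand: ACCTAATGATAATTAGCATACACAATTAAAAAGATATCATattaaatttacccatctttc
wtf5, III:244835-244894, minus strand: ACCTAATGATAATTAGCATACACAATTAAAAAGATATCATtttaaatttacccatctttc
ssa1 (Hsp70 chaperone), I:2296391-2296450, plus strand: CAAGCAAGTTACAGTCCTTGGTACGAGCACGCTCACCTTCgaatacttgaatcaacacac
ssa2 (Hsp70 chaperone), III:2058546-2058605, minus strand: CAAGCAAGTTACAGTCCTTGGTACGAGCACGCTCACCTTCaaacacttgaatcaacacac
The longest stretch common to both fragments was 587 bp for eft201 and eft202, 463 bp for the SPBC18H10.18c pair, 218 bp for the elongation factor 1 alpha pair, 97 bp for wtf2 and wtf5, 90 bp for the U3 pair and 56 bp for the Hsp70 pair.

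By contrast, 4 of 3143 pairs of repeat-free fragments, as defined below, had a common stretch of at least 25 bp. The longest, 46 bp, was that of the repeat-free pair with the most counts, shown further on. The fragment shown next, 123 bp between 2 AseI sites (capitals) at the tps1 gene, was an end of 2 of the 10 leading repeat-free pairs.
tps1 fragment, I:3481270-3481398, plus strand: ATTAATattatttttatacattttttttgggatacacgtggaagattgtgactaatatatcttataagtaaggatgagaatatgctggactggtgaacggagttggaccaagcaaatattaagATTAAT
The pair of mtf1 and hhp1, the third of these by counts, had the 13 bases in capitals as its longest common stretch, set here between 20 bases on each side.
mtf1 fragment, I:1810399-1810451, plus strand: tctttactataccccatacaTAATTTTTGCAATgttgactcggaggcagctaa
hhp1 fragment, II:1856492-1856544, minus strand: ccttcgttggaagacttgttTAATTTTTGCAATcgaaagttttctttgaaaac

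Members were therefore divided by sequence. A fragment was called repeat-free if no 50 bp stretch of it was found elsewhere in the nuclear genome, and 7867 of the eligible fragments were. A fragment shorter than 50 bp holds no such stretch, so it counted as repeat-free whatever its sequence. Fragments of a pair were said to share repeated sequence if a 50 bp stretch of one occurred in the other or in the neighbour of the other. This placed 132 pairs in the sharing class, 189 pairs with 2 repeated fragments that shared no 50 bp stretch, 5438 pairs with 1 repeated fragment and 3143 pairs of 2 repeat-free fragments. One further pair, with 1 count in G1 phase, had a fragment that was not matched to the reference. Of the 132 sharing pairs, 59 held a common stretch of at least 50 bp themselves and the others through a neighbouring fragment. Across the 3143 repeat-free pairs the longest common stretch had a median of 12 bp. It was 13 bp over the 444 of them with at least 3 counts in a phase and 12 bp over the 2699 others.

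The label of the set held only in part. The deposited annotations of 6 eligible fragments named a retrotransposon in words that the rule does not contain, and 35 carried a ribosomal protein gene symbol, among them the fragments of eft202 and ef1-b. By RefSeq, 5 eligible fragments held an rRNA gene and 2 a tRNA gene. The 7 member pairs with an rRNA gene at both ends held 73 counts (G1), 59 (G2) and 67 (M).

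Few pairs carried nearly all of the reads. Members numbered 3504 pairs with 32480 counts (G1), 3973 pairs with 29580 counts (G2) and 2923 pairs with 30332 counts (M). These were 4.90%, 4.05% and 4.43% of the counts between nuclear chromosomes over G1, G2 and M. The sharing class took 87.6% of member counts (G1, 114 pairs), 79.9% (G2, 120 pairs) and 89.4% (M, 126 pairs). Repeat-free pairs took 3.91%, 13.3% and 4.67% of member counts over G1, G2 and M, yet were 27.2% (Wilson 95% interval 25.7 to 28.7), 54.4% (52.9 to 56.0) and 37.9% (36.2 to 39.7) of the pairs. Such intervals take each pair as independent, cover counting error at most and are too narrow where pairs are linked. Pairs with 1 repeated fragment were the largest class of pairs in G1 phase, at 66.7%, and in M phase, at 55.6%, and gave way to the repeat-free pairs in G2 phase, where they were 40.5%.

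**Figure D1:**
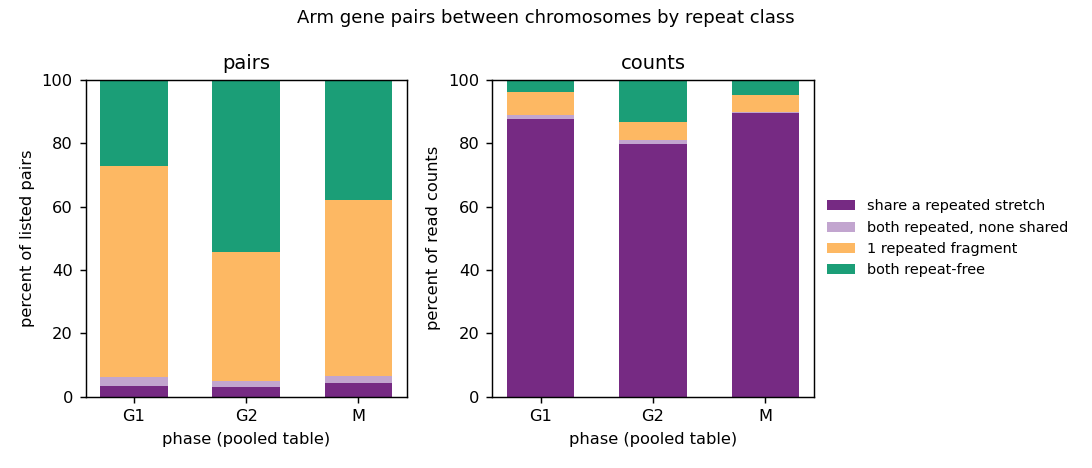
Percent of listed member pairs (left) and of their read counts (right) in each repeat class, for the pooled table of each phase. Pairs that share a repeated stretch are under 5% of the pairs and over 79% of the counts in every phase, and the repeat-free share is highest in G2 phase.

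A single pair of genes held the largest part of the reads. The fragments of eft201 (I:2907573-2910708) and eft202 (III:534746-543979), both encoding translation elongation factor 2, which moves the ribosome along the mRNA, were joined by 13478 counts (G1), 8994 (G2) and 13653 (M). This was 41.5%, 30.4% and 45.0% of all member counts over G1, G2 and M. G2 phase was the lowest of the 3 tables for this pair.

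The next pair joined the genes of elongation factor 1 alpha, which brings aminoacyl-tRNA to the ribosome. The fragments II:621911-628827, annotated with ef1-b, and III:268019-270023, the tef101 gene, had 4242, 2094 and 4659 counts over G1, G2 and M. As for eft201 and eft202, G2 phase was lowest. The third pair joined II:1802069-1803358, with SPBC18H10.18c, an uncharacterised gene, and III:382146-383403, with SPCC1682.06. It had 3315, 3820 and 3337 counts over G1, G2 and M, so that G2 phase was here the highest. Together these 3 pairs took 64.8% of member counts (G1), 50.4% (G2) and 71.4% (M).

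The sequence likeness of the third pair went on into the next fragments. Those on one side of both copies, II:1800172-1802068 and III:383404-385885, formed the repeat-free pair with the most counts, at 40, 51 and 44 over G1, G2 and M. Their longest common stretch, 46 bp, fell just under the 50 bp used to define a repeat and ran up to the AseI site, as the capitals show. The bases on either side of the capitals are also much alike.
mhr1 side, II:1802003-1802088, plus strand: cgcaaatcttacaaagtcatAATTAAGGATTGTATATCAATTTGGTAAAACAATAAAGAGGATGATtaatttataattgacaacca
ssl1 side, III:383386-383471, minus strand: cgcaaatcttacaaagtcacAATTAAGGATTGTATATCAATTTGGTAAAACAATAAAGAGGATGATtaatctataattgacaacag
The II:1802069-1803358 fragment was joined to III:383404-385885 by 33, 44 and 23 counts, and II:1800172-1802068 to III:382146-383403 by 24, 42 and 24 counts, over G1, G2 and M. This pair is therefore repeat-free by definition only.

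The wtf genes, a multicopy family of meiotic drivers that lie mostly on chromosome III, made up most of the sharing class by number. Of the 132 pairs, 88 joined 2 wtf fragments, from 4 fragments on chromosome I, 2 on chromosome II and 29 on chromosome III. Accordingly, 60 of the 88 joined chromosomes I and III, 23 joined II and III, and 5 joined I and II. Summed over the 88 pairs the counts were 5434 (G1), 6372 (G2) and 3983 (M). The pair of wtf1 (I:5058925-5059480) and wtf21 (III:2064746-2065790) led with 642, 610 and 605 counts over G1, G2 and M, with little difference between the phases. The pair of wtf2 (II:592723-593618) and wtf5 (III:244148-245306) had 348, 365 and 359 counts. Other wtf pairs were lowest in M phase, as for wtf1 (I:5058586-5058924) and wtf9 (III:487122-487460), with 307 counts (G1), 331 (G2) and 130 (M). The same wtf1 fragment and wtf21 (III:2064407-2064745) had 325, 315 and 182 counts, and wtf2 and another wtf5 fragment (III:243810-244147) had 303, 321 and 219. Copies of one family share their reads, so the division of these counts among the copies is uncertain.

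The Tf2 retrotransposon fragments that passed the rule added 14 pairs, with 1250, 1725 and 837 counts over G1, G2 and M. The leading one joined a Tf2 fragment at I:1566921-1567292 and one at II:1966313-1966684 and had 321, 383 and 179 counts. Apart from wtf and Tf2, 23 sharing pairs had 21682, 15388 and 22228 counts over G1, G2 and M, nearly all of them in the 3 leading pairs described above. The U3 RNA genes, whose product guides cleavage of the pre-ribosomal RNA, were next (I:986970-990085 and II:3958236-3959401), with 408 counts (G1), 260 (G2) and 329 (M). The Hsp70 genes ssa1 (I:2295591-2297766) and ssa2 (III:2057067-2059303) had 74, 35 and 93 counts. For both pairs, as for the elongation factors, G2 phase was lowest.

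Among pairs of repeated fragments with no 50 bp stretch in common, mam3 (I:1856858-1860184) and map4 (II:2435628-2438561) led, with 58 counts (G1), 28 (G2) and 19 (M). Both encode serine- and threonine-rich surface proteins of mating cells, and their longest common stretch was 28 bp. Those next in order were again wtf pairs, wtf2 with wtf10 at 48, 28 and 16 counts and wtf1 with wtf6 at 28, 17 and 4 counts over G1, G2 and M, each with a common stretch of 44 bp. All 3 pairs were highest in G1 phase and lowest in M phase.

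**Figure D2:**
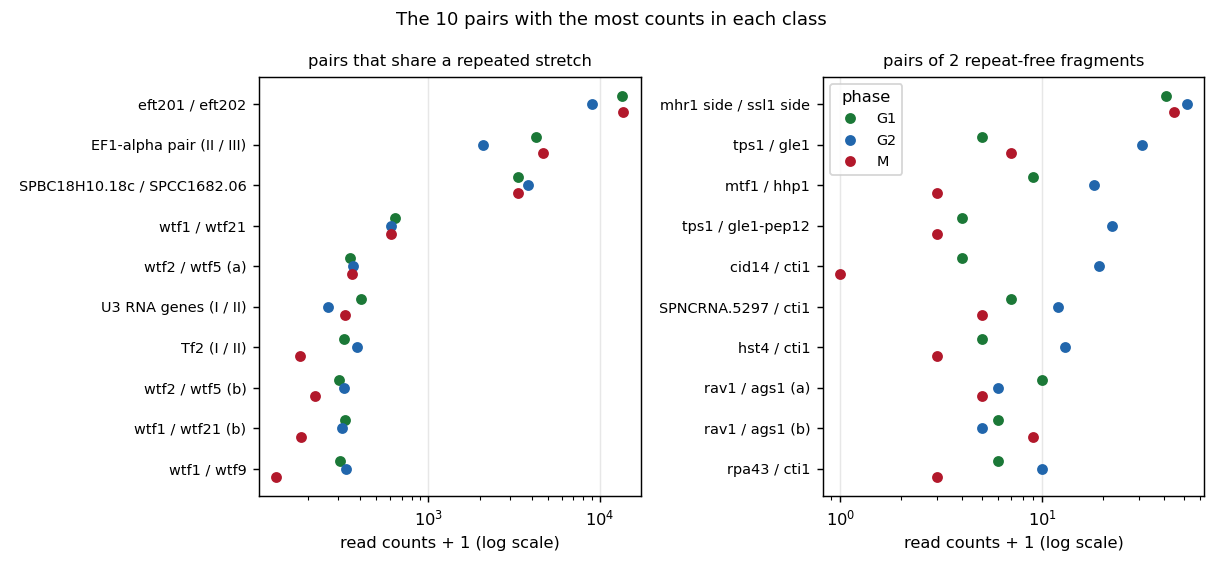
Read counts plus 1, on a log scale, of the 10 member pairs with the most counts among those that share a repeated stretch (left) and among repeat-free pairs (right), with 1 point per pooled phase table. Sharing pairs reach 13653 counts, whereas repeat-free pairs reach 51, and 8 of the 10 repeat-free pairs are highest in G2 phase. Pairs were ranked by counts summed over the phases, and the G2 table held the most repeat-free counts, so the ranking favours pairs high in G2 phase.

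Without shared repeats the counts were small. A pair was called with at least 3 counts, the cut-off of the study. The study applied this cut-off to interactions in which both fragments had a unique position. The pairs used here include repeated fragments, so the called pairs are not the significant interactions of the study. Of the members, 179 pairs were called in G1 (5.11%), 546 in G2 (13.7%) and 162 in M (5.54%). Over all listed pairs between nuclear chromosomes, 17.3%, 18.2% and 15.0% were called over G1, G2 and M, which was above the share of the members in each table. This comparison was not tested, because members are part of that background. The exact tests below take each pair of a pooled table as 1 observation. They compare numbers of pairs between 3 tables, have no replicate of a phase behind them and give p-values that are too small where pairs are linked, so they do not show a difference between phases. By this count the called share was higher in the G2 table than in the G1 table (adjusted p = 1.84e-36, two-sided Fisher's exact test, Benjamini-Hochberg over 36 tests) and the M table (adjusted p = 3.74e-29), and the G1 and M tables differed by 0.43 percentage points (adjusted p = 0.724).

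Among the repeat-free pairs the G2 table was again highest. Here 53 of 952 pairs were called in G1 (5.57%), 391 of 2162 in G2 (18.1%) and 47 of 1108 in M (4.24%). By the same exact test between tables, the G2 share differed from the G1 share (adjusted p = 6.51e-22) and the M share (adjusted p = 2.36e-31), with more reads behind the G2 table as given next. The G1 and M tables differed by 1.32 percentage points (adjusted p = 0.434, exact test). Over all repeat-free pairs between nuclear chromosomes, arms or not, 5.83%, 17.9% and 3.46% were called over G1, G2 and M, close to the shares of the members.

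Depth of repeat-free reads moved with this result. Repeat-free members had 1270, 3939 and 1416 counts over G1, G2 and M. Non-adjacent repeat-free pairs within one chromosome, chosen on the arms by the same rule, had 705, 2381 and 789 counts, and adjacent repeat-free fragments 1096, 3372 and 1051. G2 phase was thus the deepest table for repeat-free pairs of every kind, although the total of each table was alike, at 2089241, 2242839 and 2146119 counts. Of the non-adjacent repeat-free arm counts, those between chromosomes were 64.3%, 62.3% and 64.2% over G1, G2 and M. Whether the higher share of called pairs in G2 phase came from this depth was not tested.

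The repeat-free pairs with the most counts fell at few loci. They were ranked by counts summed over the 3 phases, so the deeper G2 table weighed most in the choice of these pairs. After the duplicated locus above, the strongest joined the 123 bp fragment at tps1 (I:3481272-3481394), the trehalose-6-phosphate synthase gene, with gle1 (II:247434-248511), a gene for mRNA export at the nuclear pore. This pair had 4 counts (G1), 30 (G2) and 6 (M). The tps1 fragment was also joined to II:247017-247418 (pep12 and gle1), close by on chromosome II, by 3, 21 and 2 counts, and to the short fragment between these by 0, 2 and 0. That short fragment, of 15 bp, was repeat-free by its length only, and its longest stretch in common with the tps1 fragment was 15 bp. The remaining partner, at kae1 and dna2 (II:3592244-3593113), had 2, 2 and 0 counts. In G2 phase the tps1 fragment had 55 counts with these 4 partners, where G1 had 9 and M had 8.

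A cti1 locus on chromosome III held 4 of the 10 leading pairs. The cti1 product binds the condensin subunit Cut3. Fragment III:2041782-2044394 had 9 partners and 12, 63 and 4 counts over G1, G2 and M, and III:2041448-2041765 had 6 partners and 16, 51 and 6 counts. All 6 partners of the shorter fragment were also partners of the longer one. Its partner at cid14 and pfs2 (I:321544-321834) had 3, 18 and 0 counts with the longer fragment and 3, 10 and 0 with the shorter. Cid14 is a poly(A) polymerase of the nuclear surveillance machinery. The partner at fta2 and hst4 (I:2190913-2193531), a kinetochore protein gene and a sirtuin deacetylase gene, had 4, 12 and 2 counts with the longer fragment and 0, 9 and 0 with the shorter. A fragment of non-coding transcripts (II:1680127-1682147), 58.6 kb from the centre of its centromere, had 6, 11 and 4 counts with the shorter fragment and 1, 4 and 0 with the longer. The fragment of rpa43, a subunit of RNA polymerase I (II:4000845-4003649), had 5, 9 and 2 counts with the shorter fragment and 1, 3 and 0 with the longer. In G2 phase all 6 listed pairs of the shorter cti1 fragment were called, and 7 of the 9 of the longer. In M phase 2 pairs of each were listed, of which 1 and 0 were called. Over all repeat-free pairs, 18.1% were called in G2 and 4.24% in M. The locus was chosen by counts summed over the phases, in which the deeper G2 table weighed most. Its called pairs therefore do not show a difference between phases.

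Apart from these loci, the mtf1 fragment (I:1809579-1811227), for a mitochondrial transcription factor, and the hhp1 fragment (II:1855729-1858526), for a casein kinase I, had 8, 17 and 2 counts over G1, G2 and M. The rav1 fragment (II:3525488-3525758), for a regulator of the vacuolar proton pump, joined consecutive fragments of ags1, the alpha-glucan synthase gene. It had 9, 5 and 4 counts with III:1373763-1375057 and 5, 4 and 8 with III:1375058-1377815. These were the only pairs of the 10, a list on which the deeper G2 table weighed most, in which G2 phase was not highest. In M phase the pair with the most counts after the duplicated locus joined a 34 bp fragment at dbl4 (I:3477185-3477218) to the cfh4 region (II:2681146-2686543), with 0, 1 and 10 counts over G1, G2 and M. At 34 bp, the dbl4 fragment was repeat-free by its length only.

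Only 7 repeat-free pairs were called in all 3 phases. These were the duplicated locus, tps1 with gle1, the non-coding II:1680127-1682147 fragment with cti1, the 2 rav1 and ags1 pairs, rgs1 with ero12 and ste6 (I:681162-683661 and III:1759675-1771465, at 3, 6 and 3 counts) and SPAC323.07c with brc1 (I:3911811-3913744 and II:428278-429481, at 3, 4 and 3 counts). Rgs1 regulates pheromone G-protein signalling and Ste6 activates Ras in mating, while Brc1 acts in DNA repair. Of 444 repeat-free pairs called in any phase, 353 were called in G2 phase only, 19 in G1 phase only and 32 in M phase only. Of these 353, 212 were still listed in another phase with fewer counts and 141 were not. The G2 table also held more repeat-free member counts, at 3939 against 1270 (G1) and 1416 (M). Over all repeat-free pairs between nuclear chromosomes, 5.83%, 17.9% and 3.46% were called over G1, G2 and M. The numbers called in 1 phase only therefore do not show contacts particular to a phase.

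Listing in more than 1 phase was most frequent for sharing pairs. Sharing pairs were listed in all 3 phases in 108 of 132 cases and in at least 2 in 90.9%. Repeat-free pairs were listed in 1 phase in 2253 cases, in 2 phases in 701 and in all 3 phases in 189, so that 28.3% (Wilson 95% interval 26.8 to 29.9) were listed more than once. Pairs with 1 repeated fragment were listed more than once in 122 of 5438 cases, or 2.24% (1.88 to 2.67). Pairs of 2 repeated fragments with no shared 50 bp stretch were listed more than once in 39 of 189 cases, or 20.6% (15.5 to 27.0), an interval that overlaps that of the repeat-free pairs. The 3143 listed repeat-free pairs stood against 19415011 possible ones. Repeat-free pairs of G1 phase were listed again in G2 phase in 58.1% of cases and in M phase in 26.0%. Those of M phase were listed in G2 phase in 42.1% and in G1 phase in 22.4%. Those of G2 phase were listed in G1 phase in 25.6% and in M phase in 21.6%, and there were more of them to begin with.

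A higher count went with a higher chance of being listed elsewhere. Repeat-free G1 phase pairs with 1 count were listed in G2 phase in 52.3% of 771 cases, those with 2 counts in 79.7% of 128 and those with at least 3 in 90.6% of 53. In M phase the same 3 groups were listed in 23.5%, 32.8% and 47.2%. For G2 phase pairs looked for in G1 phase the shares were 16.6% of 1325, 29.4% of 446 and 51.7% of 391. The order was the same in all but 1 of the 6 comparisons, that of M phase pairs in G2 phase, where it was 37.3%, 66.7% and 66.0%.

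**Figure D3:**
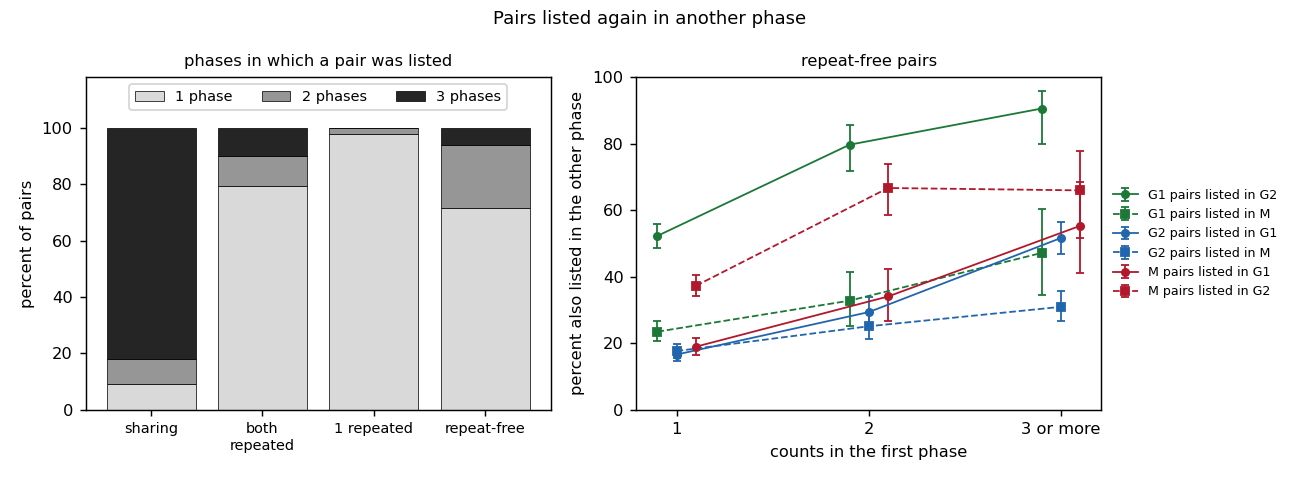
Left, percent of the pairs of each repeat class that were listed in 1, 2 or 3 phases. Right, percent of repeat-free pairs of one phase, by their counts there, that were also listed in another phase, with Wilson 95% intervals; 52.3% of the G1 phase pairs with 1 count and 90.6% of those with at least 3 are listed in G2 phase.

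Neighbouring fragments often shared a partner, as at gle1 and ags1. Of the repeat-free pairs, 1716 of 3143 (54.6%) had another in which 1 end was the same fragment and the other the adjacent fragment, against 372 of 5438 (6.84%) pairs with 1 repeated fragment. In 536 of the 886 such steps between repeat-free pairs the counts were equal in all 3 phases. Linked pairs were grouped, which gave 2257 groups in place of 3143 pairs. Whether single read pairs were counted for adjacent fragments was not tested. Linked pairs are not independent. With each group counted 1 time the called shares were 5.86% (G1), 19.1% (G2) and 4.11% (M).

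Shares of the chromosome pairs lay near those of the possible fragment pairs, with chromosomes I and II somewhat below. Among repeat-free pairs, chromosomes I and II were joined by 51.8% in G1 (Wilson 95% interval 48.6 to 55.0), 50.5% in G2 (48.4 to 52.6) and 49.2% in M (46.2 to 52.1), against 53.4% of possible fragment pairs. Chromosomes I and III were joined by 26.6%, 26.1% and 27.3%, against 25.4% possible. Chromosomes II and III were joined by 21.6% in G1, 23.4% in G2 (21.6 to 25.2) and 23.6% in M (21.1 to 26.1), against 21.1% possible. None of the 9 comparisons of these shares between phases passed the exact test (lowest adjusted p = 0.532).

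**Figure D4:**
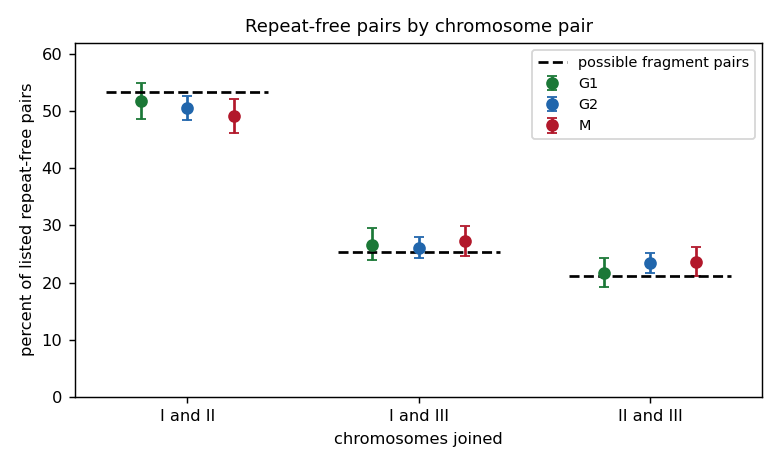
Percent of listed repeat-free pairs that joined each pair of chromosomes, with Wilson 95% intervals, by phase; dashed lines mark the share of possible repeat-free fragment pairs. The I and II share lies below its line and the II and III share above its line in each phase; for I and II in M phase it is 49.2% against 53.4% possible.

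With the repeated fragments included, chromosome III rose in share. Chromosomes I and II were joined by 36.2% of all member pairs (G1), 42.3% (G2) and 36.6% (M), against 52.7% of possible pairs. Chromosomes I and III were joined by 36.2%, 31.7% and 35.3%, against 25.8%. Between the tables, with each pair as 1 observation, the I and II share was higher in G2 than in G1 (adjusted p = 4.62e-07, exact test) and M (adjusted p = 1.06e-05), and the I and III share was lower in G2 than in G1 (adjusted p = 0.000272) and M (adjusted p = 0.0086). Many of these pairs share a repeated fragment, so they are not independent. No such comparison passed among repeat-free pairs, whose own share of the members was highest in G2 phase. Of the eligible repeated fragments 63 lay on chromosome III, 40 on I and 38 on II.

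Over all listed pairs, repeat-free loci at a like distance from the centromere were joined about as often as their number gives, with G2 phase slightly below. Distances were measured from the centre of each centromere window, and were like if they differed by under 200 kb. Like distances were found in 12.7% of repeat-free pairs in G1 (Wilson 95% interval 10.7 to 15.0), 12.3% in G2 (10.99 to 13.76) and 14.9% in M (12.9 to 17.1). Possible pairs gave 13.81%, just above the G2 interval, and the numbers of pairs that each fragment had gave 13.0%, 13.4% and 14.4% over G1, G2 and M. The difference of G2 minus M phase, -2.59 percentage points, did not pass the exact test after adjustment (adjusted p = 0.156, unadjusted p = 0.0432). The median difference between both distances was 872 kb (G1), 825 kb (G2) and 771 kb (M), against 823 kb for possible pairs. Among called repeat-free pairs, like distances were found in 9.43% of 53 (G1), 9.21% of 391 (G2) and 19.15% of 47 (M). The G2 interval, 6.73 to 12.48, lay below the 13.81% of possible pairs, and those of G1 and M held it.

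Near the centromere the counts of pairs were small and the result depended on the limit. Both fragments lay within 300 kb of the centromere in 22 of 952 repeat-free pairs in G1 (2.31%, 1.53 to 3.47), 51 of 2162 in G2 (2.36%, 1.80 to 3.09) and 31 of 1108 in M (2.80%, 1.98 to 3.94). Possible pairs gave 1.80% and the fragments' own numbers of pairs 2.13%, 2.01% and 2.35%, and the intervals held the latter value in each phase. The M phase interval lay above the 1.80% of possible pairs. No comparison between phases passed the exact test (lowest adjusted p = 0.724). Within 250 kb, 11, 43 and 20 pairs were listed over G1, G2 and M, where an even spread over possible pairs gives 11.4, 25.8 and 13.2. Between 250 and 500 kb the opposite was found, with 5, 20 and 5 pairs against 14.7, 33.5 and 17.2. Pairs with 1 end within 250 kb and the other over 2000 kb away were also above their even share, at 57, 111 and 64 against 44.2, 100.5 and 51.5. These 3 combinations of distance bins are a selection, and carry no interval or test. Others departed as far, such as pairs with both ends at 1500 to 2000 kb. Of these, 10, 12 and 2 were listed over G1, G2 and M, against 10.4, 23.7 and 12.1.

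By distance, the ends of repeat-free pairs followed the supply of fragments. Between 0 and 250 kb from the centromere lay 12.4% of ends (G1), 12.1% (G2) and 12.4% (M), against 11.2% possible. Beyond 2000 kb lay 19.2%, 19.4% and 19.5%, against 19.1%. The bin that departed most was 1500 to 2000 kb in M phase, with 8.66% of ends against 11.1%. Over all members, the 500 to 1000 kb bin stood above its supply, with 33.9%, 32.1% and 34.8% of ends against 25.9%. Among repeat-free pairs the same bin held 24.5%, 25.4% and 26.2% of ends against 25.6%. Of the 5 repeated fragments with the most partners, named next, 2 lay in this bin and the others at 142.6, 1132 and 2502 kb. What raised the share over all members was not tested.

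**Figure D5:**
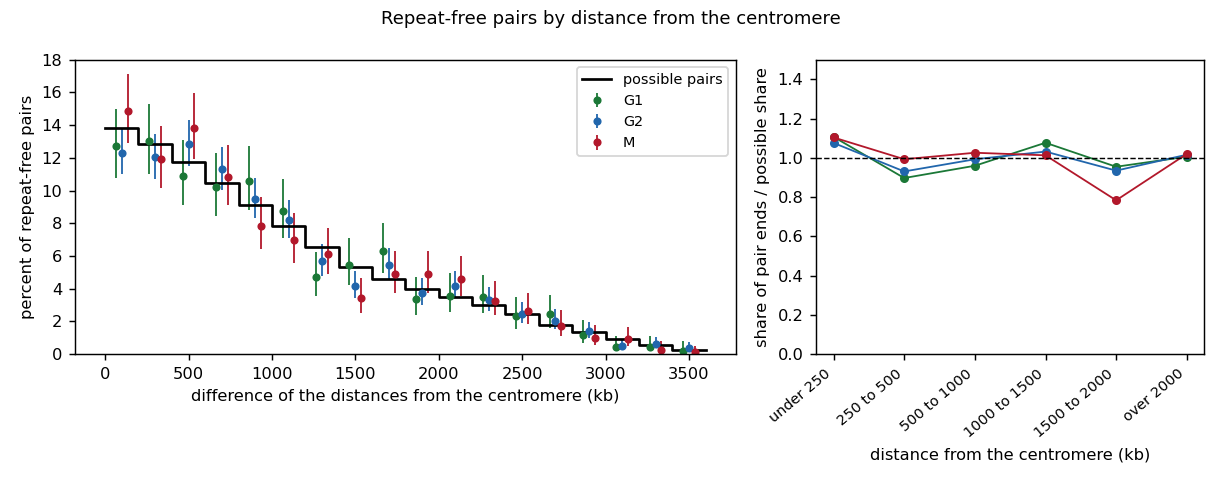
Left, percent of repeat-free pairs by the difference of both fragments' distances from the centromere in 200 kb bins, with Wilson 95% intervals (points, by phase) and the share of possible pairs (line). Right, share of pair ends in each distance bin over the possible share; ratios run from 0.78 in M phase at 1500 to 2000 kb to 1.11 in G1 phase under 250 kb.

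Repeated fragments reached many partners, nearly always with 1 count. In all, 140 repeated fragments formed the 5438 pairs with 1 repeated end, and 10 of them held 32.5% of these pairs. Fragment II:687952-699856, an 11905 bp stretch at SPBPJ4664.02, had 303 member partners, 122 (G1), 121 (G2) and 72 (M). The wtf17 and wtf18 fragment (III:1805920-1808577) had 226 partners and the gsf2 fragment (III:960564-964233), for a flocculin of the cell surface, had 214. The duplicated cox1101 and cox1102 fragments of chromosome I (I:1267149-1269838 and I:4901154-4903843), for a cytochrome oxidase assembly factor, had 192 partners each. Of the gsf2 partners, 210 of 214 had 1 count in all. Pairs with 1 repeated end had 1 count in 98.4%, 96.8% and 98.8% of cases over G1, G2 and M.

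No repeat-free fragment approached these numbers. The highest was III:1391784-1400732, an 8949 bp fragment with rsc7, ole1, gst4 and wtf11, at 19 member partners, of which 14 were repeat-free. Next were II:1745842-1755710 (clg1 and scr1) and III:828242-840811 (aah3 and mok14), with 15 partners each, and I:3803244-3804303 (tma19, the translationally controlled tumour protein) and I:4125371-4130204 (pot1 and bgl2), with 14 each, as also had II:4049202-4058077 (odr1 and cwf10). The tma19 fragment lay 33.8 kb from the centre of its centromere, and 13 of its partners were repeat-free. Of the 3493 repeat-free fragments in repeat-free pairs, 1938 had a single partner. Fragments in repeat-free pairs were long, with a median of 1403 bp (G1), 1434 bp (G2) and 1419 bp (M), against 847 bp over all eligible repeat-free fragments, and their median GC content was 35.3% against 35.1% in the rest.

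Genes of the groups below, drawn from words of the deposited annotation, were ends of repeat-free pairs in every phase. No group was tested against the others. The counts of called pairs below stand against 5.57%, 18.1% and 4.24% called over all repeat-free pairs of the G1, G2 and M tables. Fragments with a heat shock or chaperone gene were 72 of 8009 (0.899%) and were an end of 30, 59 and 32 repeat-free pairs over G1, G2 and M (3.15%, 2.73% and 2.89% of them), of which 1, 9 and 1 were called. A pair has 2 ends, which raises its chance of holding such a gene, and fragments in pairs were longer than the rest, as given above. Fragments with a cyclin, cdc or mitotic gene (92, or 1.15%) were an end of 32, 45 and 33 repeat-free pairs (3.36%, 2.08% and 2.98%), of which 1, 11 and 0 were called. The leading one joined lcp1 (I:716864-718065), annotated as cyclin related, to sum3 (III:974045-976881), a translation helicase, with 2, 6 and 0 counts over G1, G2 and M. Fragments with tubulin, actin or myosin genes (83, or 1.04%) were an end of 19, 41 and 19 pairs (2.00%, 1.90% and 1.72%). They were led by abp1 (I:5254157-5260887), an actin-binding protein gene, with cdc37 (II:1832885-1835295), a chaperone gene, at 4, 6 and 2 counts. Fragments with the word ubiquitin (93, or 1.16%) were an end of 16, 42 and 28 pairs (1.68%, 1.94% and 2.53%), led by hul5 (I:1547037-1548350) with lsm2 (III:2144490-2144894) at 0, 5 and 2 counts.

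Smaller groups gave few pairs. Fragments annotated with the word histone (45), which include modifying enzymes, were an end of 9, 19 and 22 repeat-free pairs, led by hst4 with cti1 as above. The 16 amino acid transporter fragments were an end of 5, 12 and 4, led by avt3 (I:1946646-1950389) with rec11 (III:1223281-1225067), a meiotic cohesin gene, at 2, 5 and 0 counts. The 18 fragments with the words for glycolytic enzymes were an end of 4, 10 and 5, and the leading one held an aldolase of aromatic amino acid synthesis rather than of glycolysis (I:465290-469084 with II:4294091-4295626, at 2, 4 and 0 counts). The 11 hexose transporter fragments, of which 5 were repeat-free, were an end of 3, 2 and 3, led by the fragment annotated ght5 (III:210181-212263) with pku80 (II:4302627-4304711), a Ku subunit, at 2, 5 and 1 counts. The 11 fragments with glycoprotein, flocculin or adhesin genes were an end of 2, 6 and 7, none of them called, and the leading pair, yos9 (I:514361-515132) with ric8 and mic60 (II:2663617-2669945), had 1 count in each phase. Translation factor fragments (75, of which 69 were repeat-free) were an end of 17, 25 and 24 repeat-free pairs with 26, 38 and 35 counts, in contrast to the 17723, 11091 and 18318 counts between 2 of them when shared sequence was included.

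Some broad groups held more pairs. Non-coding RNA fragments (204) were an end of 63, 142 and 66 repeat-free pairs (6.62%, 6.57% and 5.96%), sequence orphans (287) of 76, 187 and 89 (7.98%, 8.65% and 8.03%), and fragments of hypothetical or unknown genes (653) of 182, 408 and 215 (19.1%, 18.9% and 19.4%). Pseudogene fragments (25) were an end of 8, 24 and 7. All groups but the histone, glycoprotein, hexose transporter and wtf groups had more repeat-free pairs in G2 phase than in M phase. Differences between groups in this respect were not tested.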

How the data were processed

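Per the labels and the methods of the study, each GCC library (2 biological replicates for each of 3 phases) was read as paired ends, which the Topography suite placed with SOAP, without mismatches, on ASM294v2. The authors deposited 1 pooled table per phase that holds raw, not normalized, read counts of paired AseI fragments. A further table named in the labels was not used here. The number of unused columns of per-sample values was 0. Each pair stood in the table in both directions and entered 1 time. Table depth was 2089241 (G1), 2242839 (G2) and 2146119 (M) counts. Reads of PCR products are not independent molecules, and linked pairs are not independent, so Wilson intervals cover counting error at most and are too narrow.

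Fragments were matched to the RefSeq genome by their AseI sites (9461 of 9464), and gene names come from the deposited annotation or RefSeq genes that overlap. Beyond the centromere of chromosome I the tables lie 6149 or 6150 bp before RefSeq, and no sequence is shown from there. Shares of pairs were compared between tables with two-sided Fisher's exact tests in scipy, Benjamini-Hochberg over 36 tests (6 measures, 3 phase comparisons, all and repeat-free pairs). Named pairs were the 10 with the most counts among repeat-free and among sharing pairs, the 3 leading repeat-free pairs of each phase, repeat-free pairs called in 3 phases, the 5 fragments with the most partners of either kind and the leading pair of each gene group. Other pairs named, at the same loci or among pairs of repeated fragments, were chosen after their values were seen. The scripts were tested on simulated data. The members and lists were chosen with earlier results of these data known.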

Additional observations from a re-analysis of the deposited data

How the results depend on the processing

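No paired analysis was possible because the tables pool both replicates of each phase, and for the same reason no replicate could be left out. The higher called share of the G2 table kept its direction and passed the exact test between pooled tables at cut-offs of 2 and 5 counts, with fragments over 150 kb from the ends, and with neighbouring pairs counted 1 time, an alternative chosen after seeing the data. For repeat-free pairs, the like-distance share over that of possible pairs was 0.92 (G1), 0.89 (G2) and 1.08 (M). It moved to 0.68, 0.67 and 1.39 with called pairs only, and to 0.78 in G2 phase when weighted by counts. The near-centromere share over that of possible pairs was 1.28 (G1), 1.31 (G2) and 1.55 (M). With a limit of 200 kb it was 0.57, 1.26 and 1.35, and with 500 kb 0.85, 1.01 and 1.04, over G1, G2 and M. The excess near the centromere thus depended on the limit, in G1 phase at 200 kb and in every phase at 500 kb. The share joining I and II moved to 47.3% in G2 phase when weighted by counts, and with called pairs only to 44.8% (G2) and 53.2% (M). With called pairs only, I and III moved to 30.9% (G2) and 23.4% (M). Weighted by counts, II and III moved to 24.6% in G1 phase. Called repeat-free pairs that were also called in all 3 phases were 1.58%, or 18.9% with 1 count allowed in the others. With stretches of 25 bp the sharing class rose to 4.31%, 4.05% and 5.51% of pairs over G1, G2 and M. Over all members, the lower I and III share of G2 against M phase no longer passed with called pairs only (adjusted p = 0.122, exact test) or with neighbouring pairs counted 1 time (adjusted p = 0.0859, exact test). The causes were not tested. Most repeat-free pairs rested on 1 or 2 counts, so a pair not listed in a phase may have been missed at this depth.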
